A study of Mus musculus with 14 samples.

Results

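The alveolar type 1 genes described here are 8 transcripts listed by name as markers of the flat epithelial cell of the lung: Ager, Hopx, Aqp5, Pdpn, Rtkn2, Akap5, Emp2 and Clic5. All 8 were found among the 55291 gene symbols of the count table, and all 8 passed the filter on low counts that left 17933 genes for testing. RNA came from lung tumor nodules, frozen at collection, of mice of strain C57BL/6 and genotype HER2 Exon20YVMA, an insertion of the amino acids YVMA in the kinase domain of the receptor HER2, which all 5 groups carry. The groups were vehicle (2 libraries), mobocertinib (also called TAK-788, a tyrosine kinase inhibitor; 3 libraries), T-DM1 (an antibody against HER2 joined to a cytotoxic drug; 3 libraries), the combination of both drugs (3 libraries), and nodules with acquired resistance to mobocertinib given alone (resistant; 3 libraries). Treatment was described as long term. The age of the mice, doses, days of treatment, and the promoter and cell type that drive the allele were not stated in the labels. Replicates are numbered in accession order. Nothing in the labels says that they came from separate animals, and a p-value here speaks only of the spread among these libraries, which may be technical.

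Alveolar type 1 cells are thin, spread-out cells that cover most of the gas exchange surface. Alveolar type 2 cells, which make surfactant, can divide and differentiate into type 1 cells after injury, and lung adenocarcinomas of mice often express genes of the type 2 program. In a whole nodule the transcripts could come from tumor cells, from normal alveoli taken along with them, or from other cells, and a smaller number of cells cannot be told apart from less RNA per cell.

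The members differ in role. Ager encodes RAGE, a pattern recognition receptor of the immunoglobulin superfamily that is very abundant in type 1 cells. Pdpn encodes podoplanin, a mucin-type membrane glycoprotein also found on lymphatic endothelium and mesothelium. Aqp5 is a water channel, Clic5 a chloride intracellular channel protein linked to the actin cortex, and Emp2 a tetraspan membrane protein. Akap5 is an anchoring protein for protein kinase A, Rtkn2 is a signalling protein of the rhotekin family, and Hopx is a small homeodomain protein that does not bind DNA itself.

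In the GENCODE M21 annotation of mm10 all 8 were protein-coding genes. Ager lay on chr17:34597862-34600936 (+ strand), Aqp5 on chr15:99590782-99594829 (+) and Pdpn on chr4:143267431-143299564 (- strand). Clic5 lay on chr17:44188584-44280172 (+), Emp2 on chr16:10281749-10313968 (-) and Akap5 on chr12:76324891-76334153 (+). Hopx lay on chr5:77086988-77115121 (-) and Rtkn2 on chr10:67979570-68059740 (+). Hopx shared 27.2% of its exon bases with Hopxos and Rtkn2 shared 3.89% with Gm16212. Whether the counting used strand is not known, so reads in the shared bases of Hopx cannot be assigned. Hopxos itself was counted at 2.09 to 5.38 CPM on group average. The longest transcripts fell into a shorter set, Hopx (1.26 kb), Aqp5 (1.80 kb), Pdpn (1.82 kb) and Ager (1.88 kb), and a longer one, Rtkn2 (4.43 kb), Emp2 (5.26 kb), Clic5 (5.86 kb) and Akap5 (6.69 kb).

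RefSeq promoters (GRCm38.p6) were matched for 7 of the 8 members. The 250 bases before the start of Ager, Akap5 and Clic5 are shown, 5′ to 3′ on the gene's strand, because Ager is the reference of the library comparisons below and Akap5 and Clic5 varied together across libraries. Capitals mark CG dinucleotides. They are chr17:34597600-34597849 for Ager, chr12:76324641-76324890 for Akap5 and chr17:44188322-44188571 for Clic5, all on the + strand.
Ager: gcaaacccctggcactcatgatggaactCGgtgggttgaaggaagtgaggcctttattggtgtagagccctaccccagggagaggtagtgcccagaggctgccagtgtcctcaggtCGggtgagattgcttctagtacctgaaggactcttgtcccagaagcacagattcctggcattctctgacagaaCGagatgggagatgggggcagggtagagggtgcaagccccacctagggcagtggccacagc
Akap5: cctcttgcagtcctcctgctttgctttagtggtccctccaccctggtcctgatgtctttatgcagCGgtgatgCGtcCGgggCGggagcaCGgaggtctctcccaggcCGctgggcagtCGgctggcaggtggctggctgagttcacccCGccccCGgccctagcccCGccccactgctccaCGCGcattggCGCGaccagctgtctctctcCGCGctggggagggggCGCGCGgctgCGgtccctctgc
Clic5: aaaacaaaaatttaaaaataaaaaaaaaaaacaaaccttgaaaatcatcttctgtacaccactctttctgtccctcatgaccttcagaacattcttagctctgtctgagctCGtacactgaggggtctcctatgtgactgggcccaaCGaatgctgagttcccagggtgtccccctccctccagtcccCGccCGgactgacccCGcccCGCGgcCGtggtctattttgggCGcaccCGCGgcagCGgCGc
The Ager window held 3 CG dinucleotides, the Clic5 window 13 and the Akap5 window 20, against a median of 6 over 32851 promoters of the same length. The GC content was 57.6% for Ager, 52.8% for Clic5 and 70.0% for Akap5, against a median of 52.4%. The motifs searched on both strands were GGAATG (TEAD), CAAGTG (NKX2-1) and TGANTCA (AP-1), none of which contains another. They were held by 12.6%, 11.6% and 6.75% of all promoters, and by 0 of the 8 windows of members, where Hopx has 2 starts. That says only that these letters are not in these windows.

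Library totals ran from 19344015 to 31287261 counts. The vehicle libraries stood apart from the other 12: messenger RNAs with a longest transcript under 1 kb took 25.7% to 30.9% of their counts against 6.79% to 11.9%, and those over 5 kb took 4.51% to 6.13% against 12.6% to 20.1%. Against vehicle, the median log2 fold change of messenger RNAs moved with length in all 4 comparisons. With mobocertinib it was -1.62 under 1 kb, -0.60 from 1 to 2 kb, 0.15 from 2 to 5 kb and 1.0 over 5 kb. A second fit corrected for transcript length and GC content is therefore given beside the members' differences from vehicle. The part of the libraries' composition in these differences was not tested. Between the combination and mobocertinib the same medians were -0.17, -0.041, 0.0080 and 0.014, and between resistant and mobocertinib libraries -0.42, -0.20, 0.059 and 0.34.

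**Figure D1:**
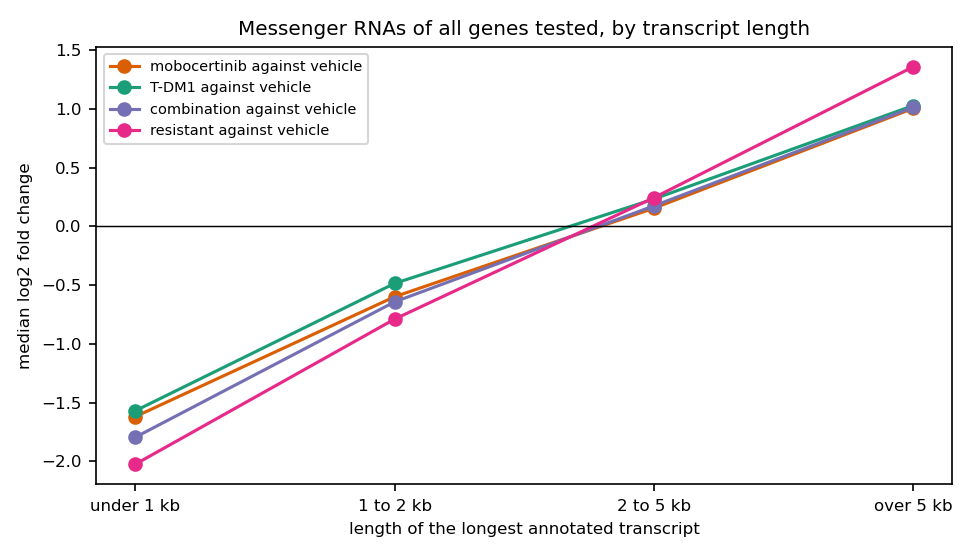
Median log2 fold change (vertical axis) of messenger RNAs of all genes tested, in 4 classes of longest transcript (horizontal axis), for the 4 comparisons with vehicle (colored lines). All 4 lines climb from between -2.02 and -1.57 under 1 kb to between 1.0 and 1.36 over 5 kb.

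All 8 members were read in every library, and the lowest was Rtkn2 in T-DM1 replicate 1 with 119 counts (exact 95% Poisson interval 98.6 to 142, which covers counting error only). Levels of different genes are compared in TPM, the deposited values per transcript length. Aqp5 had a median of 823 TPM over the 14 libraries, Ager 647 and Hopx 596. Emp2 had 262 TPM, Clic5 46.8, Pdpn 33.7, Akap5 15.4 and Rtkn2 11.7. In median TPM, Aqp5, Ager, Hopx and Emp2 each exceeded between 99.1% and 99.6% of the genes in that table. Values of 1 gene across libraries are given below in CPM, counts scaled to library size with TMM factors.

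Over all libraries the members were not equally variable. The highest library exceeded the lowest 15.5-fold for Akap5, 14.7-fold for Ager, 11.2-fold for Rtkn2, 10.03-fold for Pdpn, 9.18-fold for Aqp5 and 8.81-fold for Clic5. The same ratio was 3.97-fold for Hopx and 3.47-fold for Emp2. The share of a member's variance in log2 CPM that lay between the 5 groups was 75.1% for Aqp5, 56.3% for Hopx, 50.8% for Emp2 and 45.9% for Clic5. It was 39.8% for Akap5, 37.3% for Ager, 29.8% for Pdpn and 21.1% for Rtkn2, where the median over all tested genes was 54.2%. In the 5-group F-test (edgeR quasi-likelihood), 1 of the 8 passed, Aqp5 (adjusted p = 0.0285), against 29.4% of all genes tested. The Aqp5 call was lost without the vehicle group (0.338), without vehicle replicate 1 or 2 (0.0544 and 0.0869), without mobocertinib replicate 2 (0.0549), without T-DM1 replicate 1 or 3 (0.0712 and 0.0591) and without resistant replicate 1 (0.0597).

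**Figure D2:**
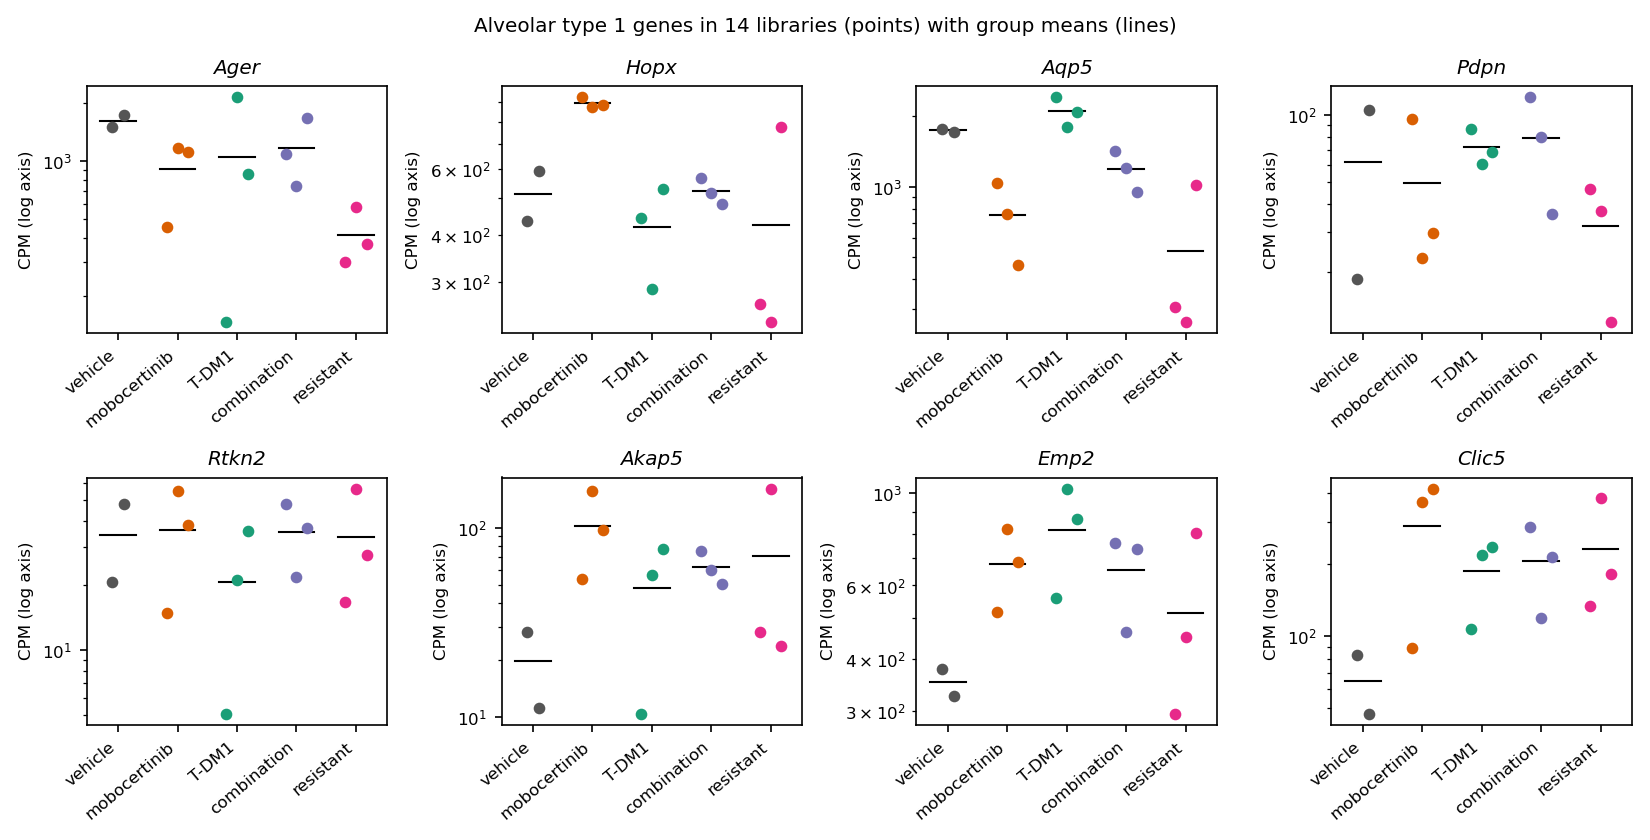
TMM-normalized CPM (log axis) of the 8 members in the 14 libraries (points), by group, with the group mean as a line. By mean the resistant libraries are the lowest group for Ager, the mobocertinib libraries are the highest for Hopx, and the 3 T-DM1 libraries are the highest for Aqp5, while Rtkn2 overlaps in every pair of groups.

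By group mean in CPM, the receptor gene Ager was highest with vehicle and lowest in the resistant nodules. In mean TPM Ager stood at 490 with vehicle, 923 with mobocertinib, 1035 with T-DM1, 1224 with the combination and 431 in resistance. It read 1504 and 1729 CPM with vehicle, 452, 1164 and 1114 with mobocertinib, and 146, 2142 and 852 with T-DM1. It read 1087, 741 and 1667 CPM with the combination and 298, 577 and 369 in the resistant nodules. All 3 resistant libraries lay below both vehicle libraries and below all 3 combination libraries, and they overlapped with mobocertinib replicate 1 and T-DM1 replicate 1. The T-DM1 group alone spanned nearly the whole range, with both the lowest and the highest library of the series. The resistant mean was 414 ± 145 CPM (SD, n = 3) and the vehicle mean 1616 ± 159 (SD, n = 2). The log2 fold change was -1.96 ± 0.756 (SE) and missed the threshold (edgeR adjusted p = 0.0532). It was past it in DESeq2 (adjusted p = 0.0213), in the fit of these 2 groups only (0.0186), and without T-DM1 replicate 1 (0.0103) or T-DM1 replicate 2 (0.0262). With the length and GC correction it was -1.40 (adjusted p = 0.196), and on the TPM scale -0.21 (0.846). With the other 3 treatments the corrected Ager differences were -0.69 (mobocertinib), -0.62 (T-DM1) and -0.30 (combination), none of them called. Ager differed by -1.13 ± 0.690 between the resistant and the mobocertinib libraries (adjusted p = 0.644), which overlapped.

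Podoplanin overlapped in all 8 comparisons made. Pdpn read 18.5 and 104.5 CPM with vehicle, 96.2, 23.0 and 29.8 with mobocertinib, and 86.5, 60.3 and 68.1 with T-DM1. It read 119.7, 80.1 and 36.1 CPM with the combination and 46.6, 37.3 and 11.9 in the resistant nodules. The vehicle libraries alone spanned most of that range, and of the pairs of groups not compared, T-DM1 lay above resistance in every library. Pdpn log2 fold changes against vehicle were -0.31 ± 0.770 with mobocertinib, 0.22 ± 0.779 with T-DM1, 0.35 ± 0.782 with the combination and -0.94 ± 0.766 in resistance, with adjusted p from 0.339 to 0.846. With the length and GC correction they were -0.18, 0.21, 0.51 and -0.82, none called, and on the TPM scale those with T-DM1 and the combination passed (2.35 and 2.41, adjusted p 0.0157 and 0.0134). There 9611 and 9479 of 15757 genes passed, and the median gene lay 1.17 and 1.18 above vehicle. Since podoplanin also marks lymphatic and mesothelial cells, their marker lists are given beside it: the lymphatic list summed to 31.8 to 385 CPM and the mesothelial list to 137 to 2607 CPM over the 14 libraries. Their part in the Pdpn values was not tested.

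The water channel Aqp5 varied most by group. It read 1755 and 1719 CPM with vehicle, 1035, 763 and 461 with mobocertinib, and 2411, 1796 and 2081 with T-DM1. It read 1415, 1199.9 and 947 CPM with the combination and 305, 263 and 1019 in the resistant nodules. In group means the order was T-DM1 (2096 ± 308, SD, n = 3), vehicle (1737 ± 25.4, n = 2), combination (1187 ± 234, n = 3), mobocertinib (753 ± 287, n = 3) and resistant (529 ± 425, n = 3). The T-DM1, vehicle and combination libraries did not overlap with one another, while combination overlapped with mobocertinib and mobocertinib with resistant. In the resistant nodules Aqp5 fell by 1.72 ± 0.508 on the log2 scale against vehicle (adjusted p = 0.0172), and it stayed called with the length and GC correction at -1.44 (adjusted p = 0.0270). The call was lost without vehicle replicate 1, vehicle replicate 2 or resistant replicate 1 (adjusted p = 0.0545, 0.0872 and 0.0686) and in a fit of these 2 groups only (0.0922). On the TPM scale, where the median gene lay 1.27 above vehicle, the Aqp5 difference was -0.19 (adjusted p = 0.752). The other Aqp5 differences from vehicle were -1.21 ± 0.507 with mobocertinib, 0.27 ± 0.517 with T-DM1 and -0.55 ± 0.509 with the combination. None was called, and that with mobocertinib passed without resistant replicate 3 (adjusted p = 0.0137). With the correction they were -1.21, 0.32 and -0.46, none called. On the TPM scale that with mobocertinib was 0.40 (0.504). Those with T-DM1 and the combination passed as higher there (1.96 and 1.21, adjusted p 0.00423 and 0.0490), beside a median gene at 1.17 and 1.18.

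Between T-DM1 and mobocertinib every Aqp5 library of the first lay above every library of the second. That difference was 1.48 ± 0.469 on the log2 scale, with an unadjusted p of 0.00780 and an adjusted p of 0.290 over all genes. The adjusted p of this Aqp5 difference ranged from 0.103 to 0.736 when single libraries were left out. The combination lay between its component drugs, at -0.82 ± 0.462 against T-DM1 with no overlap of libraries (adjusted p = 0.989) and 0.66 ± 0.461 against mobocertinib with overlap (adjusted p = 1).

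Clic5, the channel protein of the actin cortex, was lowest in the vehicle libraries. It read 82.8 and 47.2 CPM with vehicle, 88.9, 367 and 415 with mobocertinib, and 107, 218 and 236 with T-DM1. It read 288, 118 and 214 CPM with the combination and 134, 381 and 182 in the resistant nodules. Every library of the other 4 groups exceeded both vehicle libraries, mobocertinib replicate 1 by the smallest margin. Clic5 rose with mobocertinib by 2.16 ± 0.679 on the log2 scale (adjusted p = 0.0279) and in the resistant nodules by 1.84 ± 0.669 (adjusted p = 0.0426). It differed by 1.53 ± 0.659 with T-DM1 (adjusted p = 0.0927) and by 1.67 ± 0.663 with the combination (adjusted p = 0.0671), which missed the threshold. These 2 differences passed in DESeq2 (0.0414 and 0.0254) and without mobocertinib replicate 1 (0.0468 and 0.0309). That with the combination also passed in the fit of these 2 groups only (0.0232). On the TPM scale all 4 Clic5 differences passed (adjusted p 0.00164 to 0.00376). In these comparisons 9159 to 10165 of 15757 genes passed on TPM, and the median gene lay 1.11 to 1.27 above vehicle. With the length and GC correction the mobocertinib and resistant calls were lost, at 1.30 (adjusted p = 0.107) and 0.66 (0.369). The corrected differences were 0.68 with T-DM1 and 0.83 with the combination. The mobocertinib call was also lost without either vehicle library (0.0543 and 0.154) or without mobocertinib replicate 2 or 3 (0.0530 and 0.0669). The resistant call was lost without either vehicle library (0.0683 and 0.203), T-DM1 replicate 3 (0.0515) or resistant replicate 2 (0.137), and with no filter on low counts (0.0626).

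Emp2, the tetraspan membrane protein, read 377 and 325 CPM with vehicle, 518, 820.0 and 684 with mobocertinib, and 559, 1025 and 869 with T-DM1. It read 760 and 464 CPM in combination replicates 1 and 2 and 733 in replicate 3, and 295, 450.3 and 803 in the resistant nodules. All libraries of the 3 drug groups lay above vehicle, while resistant replicate 1 lay below it. Emp2 rose with T-DM1 by 1.22 ± 0.424 on the log2 scale (adjusted p = 0.0438). The differences were 0.94 ± 0.420 with mobocertinib (adjusted p = 0.101), 0.89 ± 0.419 with the combination (0.115) and 0.56 ± 0.414 in resistance (0.295). With the length and GC correction the T-DM1 difference was 0.27 (adjusted p = 0.676), that with mobocertinib was 0.037, and those of the combination and the resistant group turned sign, to -0.026 and -0.49. The T-DM1 call was also lost in the fit of these 2 groups only (0.0511), without either vehicle library (0.0965 and 0.166), and without T-DM1 replicate 2, T-DM1 replicate 3 or combination replicate 1 (0.101, 0.0956 and 0.0534). It was kept in DESeq2 (0.0135). The combination difference passed in the fit of combination and vehicle only (0.93, adjusted p = 0.04999). On the TPM scale every Emp2 difference from vehicle passed, at 2.52 with mobocertinib, 2.78 with T-DM1, 2.56 with the combination and 2.20 in resistance. The adjusted p there were 0.000200 to 0.000840, and the median gene lay 1.11 to 1.27 above vehicle.

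The kinase anchor Akap5 was low with vehicle and scattered widely elsewhere. It read 28.3 and 11.1 CPM with vehicle, 53.3, 155.8 and 97.9 with mobocertinib, and 10.4, 56.1 and 77.6 with T-DM1. It read 75.5, 60.0 and 50.7 CPM with the combination and 28.2, 160.9 and 23.6 in the resistant nodules. All mobocertinib and combination libraries exceeded vehicle, and the T-DM1 and resistant libraries overlapped with it. Akap5 was not called in any comparison in the edgeR fit, its largest log2 fold change being 2.38 ± 0.953 with mobocertinib (adjusted p = 0.0724). That Akap5 difference passed in DESeq2 (adjusted p = 0.0134), in the fit of these 2 groups only (0.0230), on the TPM scale (0.00410), and without T-DM1 replicate 1 (0.0330) or resistant replicate 2 (0.0268). The Akap5 difference with the combination passed in the fit of these 2 groups only (0.0205) and on the TPM scale (0.0108), where those with T-DM1 (0.0396) and in resistance (0.0148) passed too. Against vehicle on that scale 9159 to 10165 of 15757 genes passed, and the median gene lay 1.11 to 1.27 higher. With the length and GC correction the differences were 1.61 with mobocertinib (adjusted p = 0.156), 0.48 with T-DM1, 0.87 with the combination and 0.44 in resistance.

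Rtkn2, the rhotekin family member, showed no order between groups. It read 20.7 and 48.1 CPM with vehicle, 14.8, 55.2 and 38.0 with mobocertinib, and 5.05, 21.3 and 36.0 with T-DM1. It read 47.7, 21.9 and 36.8 CPM with the combination and 16.8, 56.3 and 27.6 in the resistant nodules. Every pair of groups overlapped, and log2 fold changes against vehicle ran from -0.73 ± 0.734 with T-DM1 to 0.07 ± 0.742 with mobocertinib (adjusted p 0.466 and 0.953). Corrected in the same way, the Rtkn2 differences were -0.56 with mobocertinib, -1.39 with T-DM1, -0.59 with the combination and -0.91 in resistance, none called, and on the TPM scale that with the combination passed (2.03, adjusted p = 0.0404). There 9479 of 15757 genes passed, and the median gene lay 1.18 above vehicle.

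Hopx, the homeodomain protein, was highest and tightest with mobocertinib. It read 435 and 592 CPM with vehicle, 929, 873 and 885 with mobocertinib, and 443, 287 and 529 with T-DM1. It read 566, 517 and 484 CPM with the combination and 263, 234 and 775 in the resistant nodules. The 3 mobocertinib libraries lay above the other 11, and the next highest was resistant replicate 3. The mobocertinib mean of Hopx was 896 ± 29.8 CPM (SD, n = 3) and the combination mean 523 ± 41.3 (SD, n = 3). Against mobocertinib, Hopx differed by -0.78 ± 0.399 on the log2 scale with the combination (unadjusted p = 0.0737, adjusted p = 1). The Hopx difference from mobocertinib was -1.09 ± 0.401 with T-DM1 (unadjusted p = 0.0174, adjusted p = 0.382) and -1.08 ± 0.401 in resistance (unadjusted p = 0.0187, adjusted p = 0.622). None passed over all genes. Against vehicle the mobocertinib difference of Hopx was 0.80 ± 0.454 (adjusted p = 0.190), and it passed without resistant replicate 3 (0.0391). The other Hopx differences from vehicle were -0.29 ± 0.441 with T-DM1, 0.024 ± 0.444 with the combination and -0.28 ± 0.441 in resistance. None of these was called. Without resistant replicate 3, that in resistance was -1.05 and passed (adjusted p = 0.0152). On the TPM scale Hopx passed as higher with mobocertinib (2.43, adjusted p = 0.000369). It also did with T-DM1, the combination and resistance (1.33, 1.77 and 1.28, adjusted p 0.00294 to 0.0180). There the median gene lay 1.11 to 1.27 above vehicle. Corrected for length and GC, the Hopx differences from vehicle were 1.43 with mobocertinib, 0.23 with T-DM1, 0.75 with the combination and 0.56 in resistance, none called. The reads that Hopx may share with Hopxos are uncertain in each of these values.

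Counted over the members, the changes from vehicle were few and mixed in direction. With mobocertinib, 1 of 8 was called (Clic5, higher), against 32.9% of all genes. With T-DM1, 1 of 8 was called (Emp2, higher), against 31.7%. With the combination 0 of 8 were called in edgeR, against 35.0%, while 1 had an unadjusted p below 0.05 (45.3% of all genes) and DESeq2 called 1, Clic5. In resistance 2 of 8 were called (Clic5 higher, Aqp5 lower), against 41.0%. The median log2 fold change of the members was 0.43, 0.25, 0.20 and -0.16 in that order, beside medians over all genes of 0.091, 0.18, 0.082 and 0.18. The 4 comparisons share the 2 vehicle libraries.

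Libraries that did not overlap with vehicle were more frequent than calls. With mobocertinib, Hopx, Akap5, Emp2 and Clic5 lay above both vehicle libraries and Ager and Aqp5 below, 6 of 8 against 59.4% of all genes. With T-DM1, Aqp5, Emp2 and Clic5 lay above, 3 of 8 against 58.2%. With the combination, Akap5, Emp2 and Clic5 lay above and Aqp5 below, 4 of 8 against 63.1%. In resistance, Clic5 lay above and Ager and Aqp5 below, 3 of 8 against 54.4%. The members' share lay above that of all genes with mobocertinib and below it in the other 3 comparisons, and no test of the share was made.

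**Figure D3:**
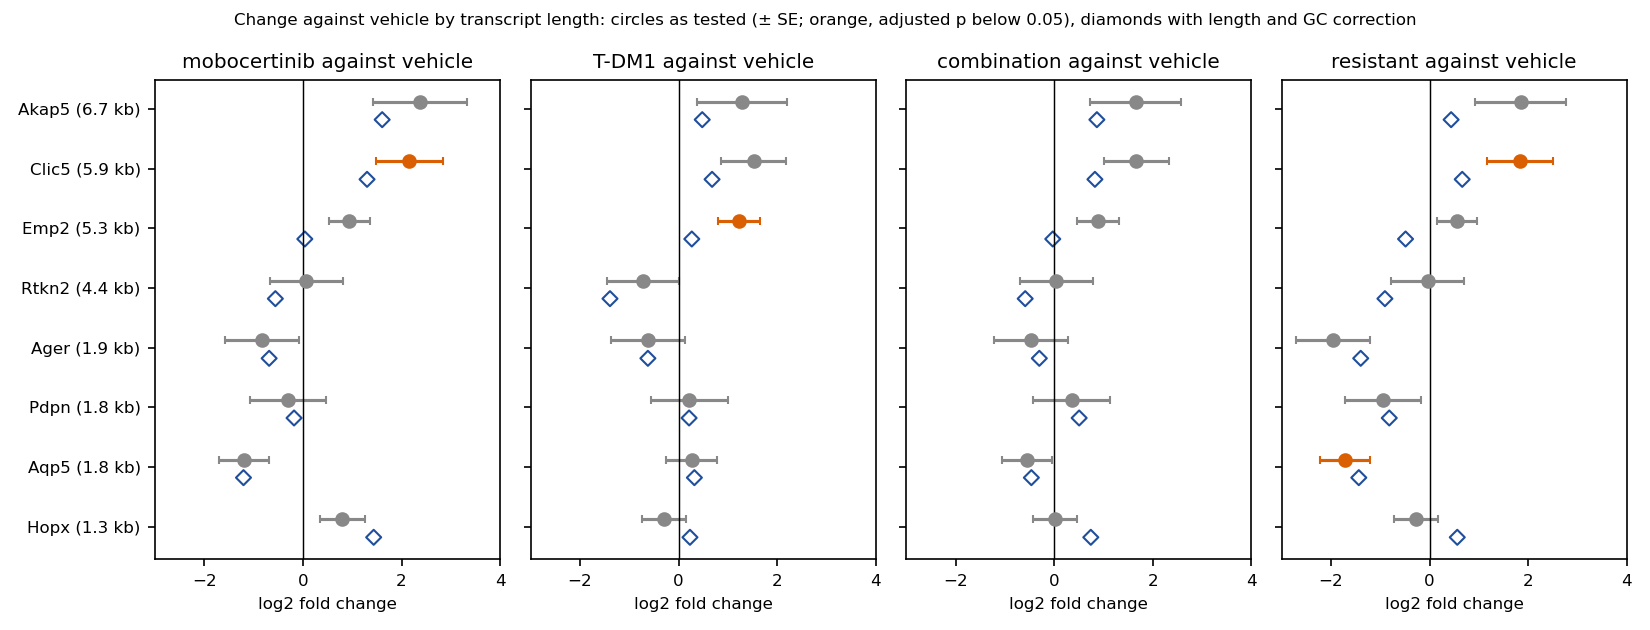
Log2 fold change against vehicle of the 8 members (rows, ordered by longest transcript in kb) in 4 comparisons (panels): circles with bars are the values as tested ± SE, in orange where the adjusted p was below 0.05, and diamonds the values with length and GC correction. The 3 longest members lie to the right of 0 in all 4 panels as tested, and of the 4 called values only Aqp5 in resistance kept its call after correction.

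Without vehicle in the contrast no member was called. Between the combination and mobocertinib 0 of 8 passed in edgeR, as did 0% of all genes, 0 members had an unadjusted p below 0.05 (1.46% of all genes) and DESeq2 called 0 members. Between the combination and T-DM1 the counts were likewise 0 of 8 (0% of all genes), 0 at an unadjusted p below 0.05 (5.10% of all genes) and 0 in DESeq2. Between resistant and mobocertinib libraries 0 of 8 passed (0.00558% of all genes), 1 had an unadjusted p below 0.05, Hopx (7.77% of all genes), and DESeq2 called 0. Between T-DM1 and mobocertinib 0 of 8 passed (0.0279% of all genes), 2 had an unadjusted p below 0.05, Aqp5 and Hopx (9.56% of all genes), and DESeq2 called 0. Libraries did not overlap for Hopx alone between the combination and mobocertinib (1 of 8 against 6.70% of all genes) and between resistant and mobocertinib (1 of 8 against 10.1%). They did not overlap for Aqp5 alone between the combination and T-DM1 (1 of 8 against 16.2%), and for Aqp5 and Hopx between T-DM1 and mobocertinib (2 of 8 against 19.0%). In simulated counts of this design, edgeR called 2% of 2-fold and 66% of 4-fold changes between the combination and mobocertinib. The changes were put in mobocertinib only, in genes picked at random. These shares are averages over such genes, so they do not tell how often a change in Hopx would be missed.

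The difference of differences asks whether the change with mobocertinib was the same with and without T-DM1 (the combination less both single-drug groups, with vehicle added back). In it 0 of 8 members were called in edgeR, against 12.2% of all genes, 2 had an unadjusted p below 0.05 (30.4% of all genes) and DESeq2 called 0. Those 2 were Clic5, at -2.02 ± 0.858 (adjusted p = 0.136), and Emp2, at -1.27 ± 0.554 (adjusted p = 0.144). Mean Clic5 was 65.0 CPM with vehicle, 290.4 with mobocertinib, 187 with T-DM1 and 207 with both. The Clic5 value was just past the threshold without mobocertinib replicate 1 (adjusted p = 0.0496) and passed on the TPM scale, at -3.24 (0.0213), where Emp2 and Hopx also passed, at -2.75 (0.00390) and -1.99 (0.0150). On that scale 6465 of 15757 genes passed, and the median gene stood at -1.11. After the length and GC correction Clic5 was at -1.15 (0.336) and Emp2 at -0.33 (0.756).

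The members did not move as one group between libraries. Log2 CPM of Ager was compared with that of each other member over the 14 libraries, 7 relations with p adjusted over them. The highest was Rtkn2 (Pearson's r = 0.649, permutation p = 0.0115, adjusted p = 0.0804; Spearman's rank correlation = 0.424, permutation p = 0.133, adjusted p = 0.879). Without T-DM1 replicate 1 and resistant replicate 1, the libraries farthest from the Ager median, that r was 0.18, so over all 14 libraries in CPM the relation rests on those 2. On the TPM scale r of Ager with Rtkn2 was 0.666 without the 2 farthest libraries, and over the 12 libraries without vehicle it was 0.642 without them. In both, the 2 farthest were T-DM1 replicates 1 and 2. The other 6 coefficients lay between -0.052 for Pdpn and 0.32 for Akap5, with adjusted p of 0.858 each. Over the 12 libraries without vehicle, r with Ager was 0.681 for Rtkn2, 0.677 for Akap5, 0.604 for Emp2 and 0.584 for Clic5, with adjusted permutation p of 0.0542 to 0.0817. There it was 0.075 for Hopx, 0.046 for Aqp5 and -0.062 for Pdpn. As deviations from group means over the 14 libraries, r with Ager was 0.790 for Rtkn2, 0.692 for Akap5, 0.666 for Clic5 and 0.613 for Emp2, and -0.27 for Hopx, -0.32 for Pdpn and -0.35 for Aqp5.

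**Figure D4:**
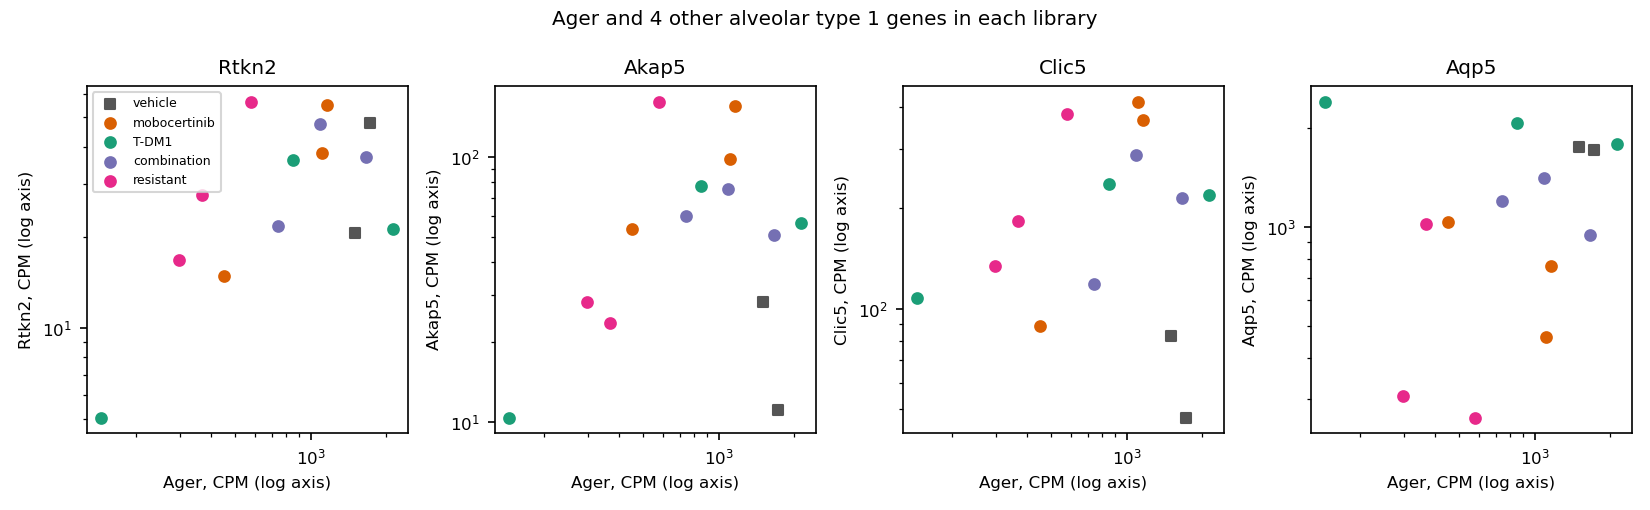
CPM of Rtkn2, Akap5, Clic5 and Aqp5 (vertical, log axes) against Ager (horizontal, log axis) in each library, colored by group, with vehicle libraries as squares. For Akap5 and Clic5 the vehicle squares sit at high Ager and low values of the second gene, away from the other 12 libraries, and T-DM1 replicate 1 is lowest for Ager, Rtkn2 and Akap5 but highest for Aqp5.

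Among all 28 pairs of members, 1 passed over the 14 libraries, with p adjusted over the pairs. That was Akap5 and Clic5 (r = 0.812, permutation p = 0.000480, adjusted p = 0.0134; Spearman's rank correlation = 0.815, permutation p = 0.000550, adjusted p = 0.0154), with r = 0.744 without the 2 libraries farthest from the Akap5 median. These are the 2 longest members, and both had their lowest group mean with vehicle. Over the 12 libraries without vehicle the pair had r = 0.731 (adjusted permutation p = 0.0529). There Rtkn2 went with Akap5 (r = 0.860, adjusted permutation p = 0.00644; Spearman's rank correlation = 0.797, adjusted permutation p = 0.0267) and with Clic5 (r = 0.828, adjusted permutation p = 0.00644; Spearman's rank correlation = 0.881, adjusted permutation p = 0.0120). Without the 2 libraries farthest from the Rtkn2 median those coefficients were 0.786 and 0.848. The testing of all pairs was chosen after the data were seen.

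T-DM1 replicate 1 shows how far members could part within 1 library. It held the lowest Ager (146 CPM), Rtkn2 (5.05 CPM) and Akap5 (10.4 CPM) of all 14 libraries and the highest Aqp5 (2411 CPM). Its summed type 2 level was 10581 CPM, the lowest of all libraries, beside 86473 and 22959 CPM in the other T-DM1 libraries. In resistant replicate 2, in contrast, Akap5 (160.9 CPM) and Rtkn2 (56.3 CPM) were the highest of the series while Aqp5 (263 CPM) and Hopx (234 CPM) were the lowest.

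Other genes with a pattern across the 14 libraries like that of Ager were sought among 12068 tested genes that were no members. The highest Pearson's r were 0.911 for Tmem116, 0.898 for F7, 0.893 for Misp3, 0.881 for Matn4, 0.866 for Olr1 and 0.857 for Asb8. For the mean of the 8 members they were 0.755 for Gja4, 0.754 for Scd2, 0.728 for Radil, 0.719 for Stx6, 0.715 for Mfsd2a and 0.707 for Afg1l. These are the tops of a long ranking and describe these libraries only.

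A second list of 18 type 1 genes, which holds none of the 8, was counted in the same comparisons. With mobocertinib 6 of 18 were called, all higher; with T-DM1 4, all higher; with the combination 8 higher and 1 lower; in resistance 5 higher and 1 lower. These shares, 33.3%, 22.2%, 50% and 33.3%, stand beside the 32.9%, 31.7%, 35.0% and 41.0% of all genes. Called higher were 33.3%, 22.2%, 44.4% and 27.8% of the list, beside 16.8%, 16.7%, 17.6% and 22.0% of all genes. The share called higher also moved with length. Of messenger RNAs over 5 kb, such as Lmo7 and Lama3 of this list, it was 40.7%, 39.02%, 41.95% and 54.3%. From 2 to 5 kb it was 16.4%, 16.6%, 17.7% and 20.9%, and from 1 to 2 kb 3.68% to 5.06%. The list's median log2 fold changes were 1.64, 1.05, 1.53 and 1.34. The part of transcript length in the list's shares and medians was not tested, and the list was not tested against the 8 members. None of the 18 was called in the 4 comparisons without vehicle by edgeR, where 0% to 0.0279% of all genes were. At an unadjusted p below 0.05 there were 0 for combination against mobocertinib (1.46% of all genes) and 4 for combination against T-DM1 (5.10%). There was 1 for resistant against mobocertinib (7.77%), and there were 4 for T-DM1 against mobocertinib (9.56%). Cav1, a coat protein of caveolae that endothelium expresses as well, had 36.3 ± 3.57 CPM with vehicle and rose by 3.76 ± 0.466 with mobocertinib, to 491 ± 173 CPM. It rose by 2.66 ± 0.439 with T-DM1, 3.61 ± 0.462 with the combination and 3.04 ± 0.448 in resistance (adjusted p from 0.000239 to 0.00103), and kept its call in every alternative run. The blood endothelial list beside it summed to 408 to 460 CPM with vehicle and 395 to 1200 CPM elsewhere, with none of its 11 genes at 0. In the same order as Cav1 above, 6, 6, 6 and 7 of these 11 genes were called higher against vehicle and 1 lower each time, with median log2 fold changes of 1.42, 1.43, 1.46 and 1.86. Their part in the Cav1 rise was not tested.

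Cyp2b10, a cytochrome P450 enzyme, rose by 3.60 ± 0.717 with mobocertinib, 3.14 ± 0.699 with the combination and 3.03 ± 0.695 in resistance (adjusted p 0.00279, 0.00479 and 0.00439). Gramd2, a membrane contact site protein, rose by 1.75 ± 0.356 with mobocertinib (adjusted p = 0.00322), from 63.6 ± 15.8 to 213 ± 32.5 CPM, and T-DM1 libraries stood at 64.4 ± 20.4 CPM. The Gramd2 call was lost with the length and GC correction (0.99, adjusted p = 0.0888). Lmo7, an actin-linked adaptor, rose by 2.51 ± 0.603 with T-DM1, 2.94 ± 0.616 with the combination and 2.95 ± 0.617 in resistance (adjusted p 0.00817, 0.00346 and 0.00256). Lama3, a laminin chain of the basement membrane, rose by 3.09 ± 0.834 with T-DM1 (adjusted p = 0.0145). For T-DM1 the calls of Lmo7 and Lama3 were lost with the correction (adjusted p 0.0904 and 0.0932) and without vehicle replicate 2 (0.0749 and 0.0855), and that of Lama3 also in the fit of these 2 groups only (0.0596). In the 5-group test 5 of the 18 passed (27.8%, beside 29.4% of all genes), with the smallest adjusted p for Cav1 (0.000887), Gramd2 (0.00278) and Cyp2b10 (0.0114).

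**Figure D5:**
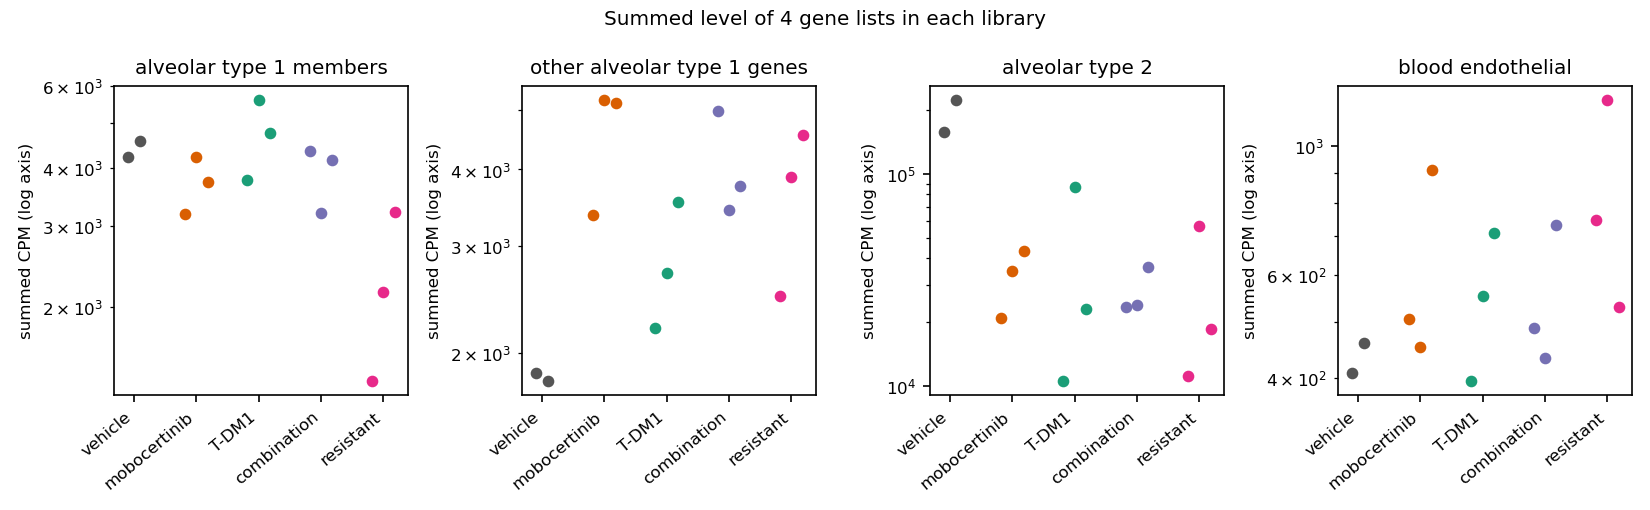
Summed CPM (log axis) of 4 gene lists in each library (points), by group. The 8 members sum to 1386 to 3211 CPM in the resistant libraries and 3187 to 5605 CPM elsewhere, the 18 other type 1 genes are lowest with vehicle, and the type 2 genes are highest with vehicle.

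The summed level of the 8 members, which Ager, Aqp5, Hopx and Emp2 dominate, was 4221 to 4576 CPM with vehicle, 3187 to 4220 with mobocertinib, 3768 to 5605 with T-DM1, 3202 to 4359 with the combination and 1386 to 3211 in resistance. The sum of the other 18 was 1798 to 1850 CPM with vehicle and 2194 to 5202 elsewhere. In TPM the 8 members summed to 1078 to 1369 with vehicle and 1252 to 2730 in resistance, and the other 18 to 227 to 356 with vehicle and 1586 to 2885 in resistance, so the order of the groups for the 8 members depended on the scale. Of the 12 type 2 genes, 1 passed the 5-group test: the surfactant gene Sftpc (adjusted p = 0.0291), at 151319 ± 48973 CPM with vehicle and between 10815 ± 11883 and 19775 ± 23222 CPM in the other groups. The type 2 list summed to 157920 to 222666 CPM with vehicle and to 10581 to 86473 CPM elsewhere. Sftpc made up 116690 and 185948 CPM of the vehicle sums. Without Sftpc the list summed to 36718 to 41229 CPM with vehicle and 6020 to 40167 CPM elsewhere, and in TPM to 8660 to 12149 with vehicle and 6237 to 32614 elsewhere. The part of this difference in the members' values was not tested.

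Genes known to accompany the passage from type 2 to type 1 cells were counted in the same fit, where 29.4% of all genes passed the 5-group test. Of 12 transitional genes 4 passed (33.3%), led by Areg, an EGFR ligand (adjusted p = 0.0103), Lgals3, a galectin (0.0152), and Sfn, a 14-3-3 protein (0.0178). Areg stood at 197 ± 25.1 CPM with T-DM1, 136 ± 52.3 with vehicle, 50.7 ± 52.6 in resistance, 43.1 ± 7.38 with the combination and 22.6 ± 11.5 with mobocertinib. Of 12 genes of the YAP and TEAD transcription factors and their targets, which act in type 1 differentiation, 6 passed (50%), led by Yap1 (0.00579), Amotl2 (0.00666) and Tead1 (0.0109). Yap1 was at 44.9 ± 6.82 CPM with vehicle and between 93.6 ± 20.0 and 125.4 ± 4.64 CPM in the other groups. Of 9 lung transcription factors 3 passed (33.3%): Id2 (0.000722), Foxa1 (0.0209) and Sox9 (0.0384).

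Markers of other cells that nodules can hold were counted as well, again beside the 29.4% of all genes that passed and the 42.4% with an unadjusted p below 0.05. In the 5-group test 1 of 9 club cell genes passed (Cyp2f2, adjusted p = 0.00536), 0 of 9 ciliated cell genes (1 at an unadjusted p below 0.05, Dnah5) and 7 of 8 squamous and basal genes, led by the keratin Krt6a (0.00306), Sprr1a (0.00864) and Krt14 (0.0113). Of the endothelial lists, 7 of 11 blood genes passed, led by Cdh5 (0.00421), Tie1 (0.00794) and Car4 (0.0110), and 4 of 6 lymphatic genes, led by Flt4 (0.00826), Lyve1 (0.0119) and Prox1 (0.0411). None of 7 mesothelial genes passed (3 at an unadjusted p below 0.05, among them Wt1), nor of 8 fibroblast genes (1, Col1a1) or 11 heart and skeletal muscle genes (1, Nppa). The squamous and basal list summed to 175 to 1094 CPM with T-DM1, 165 to 384 with the combination, 40.9 to 162 with vehicle, 25.6 to 125 with mobocertinib and 12.2 to 67.7 in resistance. The part of these cell types in the members' values was not tested.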

How the data were processed

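Total RNA of lung tumor nodules was sequenced, 14 libraries in 5 groups. The authors deposited whole-number counts per gene symbol and, in a second table on another set of genes, TPM values, which the authors scaled for transcript length and library size. STAR, RSEM and the build mm10 are named per the submitters' processing notes, with their versions, the annotation and the use of strand not given in the sources used here. Columns were matched by title, and 0 of them were left unused.

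Here, counts were tested in edgeR 4.0.16 (R 4.3.3): TMM factors, filterByExpr, and robust quasi-likelihood F-tests in 1 fit of 14 libraries and 17933 genes, with 9 residual degrees of freedom. Calls needed an adjusted p below 0.05 (Benjamini-Hochberg, over all genes), and a SE is the log2 fold change divided by the square root of F. Log2 CPM used a prior count of 0.5. Correlations took 100000 permutations, two-sided. Alternatives were RLE factors, no filter, DESeq2 1.42.0, a correction for length and GC content, TPM in limma 3.58.1 (pseudocount 1, at least 1 TPM in 2 libraries), fits of the compared groups only, and each library left out. Lengths came from GENCODE M21 and promoters from RefSeq, and the motif letters searched were those given above. On simulated counts of 17043 genes, 6%, 50%, 78% and 84% of 2-, 4-, 8- and 16-fold changes were called between mobocertinib and vehicle, with 15 false calls.

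All 13 pairs of libraries within groups differed by more than sampling noise (chi-square of 87.9 to 504 per degree of freedom over genes with at least 20 counts), and 0 were identical. The members and gene lists were chosen with earlier results of these data known. Each member is described whatever its p. Of each other list up to 3 called genes with the smallest p in the 5-group test are named, or 1 with the smallest p where none is called. Of the other type 1 genes, up to 3 called in each comparison with vehicle are named too. Genes most like Ager or the members' mean are the 6 highest by Pearson's r, with mean log2 CPM of at least 1, leaving out predicted genes and pseudogenes. Cyr61 and Ctgf were found as Ccn1 and Ccn2.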

Additional observations from a re-analysis of the deposited data

Results flagged for a closer look

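Flagged here are 9 listed genes whose change with mobocertinib differed with and without T-DM1. The measure was the tested difference of differences on the log2 scale (edgeR, adjusted p below 0.05). The 9 are not all the listed genes that passed: 3 of 12 YAP and TEAD genes and 4 of 11 blood endothelial genes did. Of the other alveolar type 1 genes the flagged ones were Cav1 (-2.81, adjusted p = 0.00985) and Lmo7 (-2.50, adjusted p = 0.0480). Of the YAP and TEAD list they were Tead1 (-2.90, adjusted p = 0.0276) and Yap1 (-1.09, adjusted p = 0.0373). Endothelial genes were Cdh5 (-3.52, adjusted p = 0.0119), Tie1 (-1.50, adjusted p = 0.0375) and the lymphatic Flt4 (-2.79, adjusted p = 0.0180). The club cell gene Cyp2f2 (-3.55, adjusted p = 0.0298) and the mesothelial gene Wt1 (-8.86, adjusted p = 0.0454) made up the rest. Wt1 had 0 counts in both vehicle libraries, so its value depends on the prior count and is no bound. All 9 values are negative and rest on the same 2 vehicle libraries. Of all genes 12.2% passed in this contrast, 1044 higher and 1150 lower. With the length and GC correction 690 were higher and 230 lower. The part of transcript length in the 9 values was not tested. None of the 8 members was among the 9.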

How the results depend on the processing

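No paired analysis was possible because the labels carry no replicate numbers shared between groups. RLE factors moved no count of calls by over 1.5 times. Members called in the 5-group test and against vehicle for mobocertinib, T-DM1, the combination and resistance (1, 1, 1, 0 and 2) came to 5, 4, 6, 7 and 4 on TPM. There 8872, 9159, 9611, 9479 and 10165 of 15757 genes passed, in the same order. DESeq2 gave 2 with mobocertinib (7138 of 30469 genes passed), 2 with T-DM1 (7123) and 1 with the combination (7405). The length and GC correction gave 0, 0 and 1 with mobocertinib, T-DM1 and resistance (4319, 4283 and 5538 of 17565 genes). With no filter 1 passed in resistance (6700 of 30469 genes). Fits of the compared groups only gave 2 with mobocertinib (4756 of 16604 genes), 0 with T-DM1 (3745 of 16766) and 3 with the combination (6394 of 16443). Without vehicle 0 passed in the 5-group test (3 of 16875 genes). Leaving out 1 library gave 0 to 3, 0 to 3, 0 to 2, 0 to 1 and 0 to 3. The cause was not tested.

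All-gene calls (5277, 5905, 5676, 6278 and 7357 of 17933) were 8872, 9159, 9611, 9479 and 10165 of 15757 on TPM. They were 3745 for T-DM1 and 3344 for resistance in fits of the compared groups only, and 3 in the 5-group test without vehicle. With 1 library left out they ran 1999 to 6240, 3182 to 6547, 2750 to 6413, 3630 to 6931 and 4602 to 7349. Among non-vehicle comparisons DESeq2 called 1 gene for combination against mobocertinib, 73 against T-DM1, 28 for resistant against mobocertinib and 392 for T-DM1 against mobocertinib. The resistant count of 1 was 0 with no filter, on TPM and in the 2 groups alone, 2 with the correction and 2 without vehicle, and 0 to 4 leaving out 1 library. T-DM1 against mobocertinib (5) gave 11 with no filter, 8 with the correction, 12 on TPM, 0 in the 2 groups alone, 2 without vehicle and 0 to 25 leaving out 1 library. Combination against T-DM1 gave 0 to 2. The difference of differences (2194) gave 3704 in DESeq2, 920 with the correction, 6465 on TPM (3 members) and 409 to 3222 leaving out 1 library (0 to 1 members). Calls split into 3015 higher and 2890 lower with mobocertinib, 2996 and 2680 with T-DM1, 3165 and 3113 with the combination, 3954 and 3403 in resistance and 1044 and 1150 in the difference of differences. With the correction the splits were 1657 and 2662, 1385 and 2898, 1737 and 2800, 2130 and 3408, and 690 and 230, and on TPM 8671 and 488, 9059 and 552, 8948 and 531, 9412 and 753, and 249 and 6216.

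Signs turned on TPM for Ager with mobocertinib (0.74), T-DM1 (0.37) and the combination (1.24), for Aqp5 with mobocertinib (0.40) and the combination (1.21), for Pdpn with mobocertinib (1.503) and in resistance (1.14), for Hopx with T-DM1 (1.33) and in resistance (1.28), for Rtkn2 with T-DM1 (1.05) and in resistance (1.77), and for r of Ager with Pdpn (0.036). The median gene there lay 1.11 to 1.27 above vehicle. With the correction Emp2 turned in the combination (-0.026) and in resistance (-0.49), Hopx with T-DM1 (0.23) and in resistance (0.56), and Rtkn2 with mobocertinib (-0.56) and the combination (-0.59). Hopx turned with RLE factors in the combination (-0.0054) and Rtkn2 with no filter in resistance (0.12). Leaving out 1 library turned the sign of 3 members not called against vehicle. Hopx ran from -0.49 to 0.066 with T-DM1, -0.15 to 0.40 with the combination and -1.05 to 0.075 in resistance. With mobocertinib, T-DM1, the combination and resistance, Pdpn ran from -1.22 to 1.54, -0.52 to 2.07, -0.38 to 2.21 and -1.68 to 0.89, and Rtkn2 from -0.38 to 0.91, -1.38 to 0.12, -0.41 to 0.91 and -0.63 to 0.77. On TPM, r of Ager with Rtkn2 passed (0.688, adjusted permutation p = 0.0458). Members had at least 119 counts per library. The parts of depth, of the spread between libraries and of the scale in these values were not tested.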
